A study of Rattus norvegicus with 21 samples.

Results

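The genes described here encode muscle ubiquitin ligases, or the adaptor subunits through which such ligases bind their targets. They were taken as the rows named Asb10, Asb2, Asb11, Asb15, Asb18, Trim50, Trim54, Trim55, Trim63 and Fbxo32 in the deposited tables of rat heart libraries. Of these 10 symbols 9 had a row among 17085, and all 9 were among the 11742 genes with enough counts to be tested; Asb2 was not analysed here. The counts of Asb11 were identical to those of Asb9 in every library, so values given for Asb11 stand for both genes and cannot be separated. The genes were chosen by their low levels in injured hearts against Sham in earlier results of the same libraries, so their values against Sham are given as a description and were not tested.

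All hearts came from Sprague Dawley rats, and RNA was taken from the infarct zone. Each of the 7 groups had 3 libraries. Sham hearts were the operated controls, without ligation and without F. MI24h hearts had 24 h of ligation of the left anterior descending coronary artery, without reperfusion. In MI1h_R the vessel was ligated for 1 h and in MI6h_R for 6 h, followed by reperfusion. MI24h-F, MI1h-23h-F and MI6h-18h-F carried the same injuries with F added, the names of the latter groups giving 23 h and 18 h of reperfusion. The design text speaks of pretreatment with fenofibrate, an agonist of the nuclear receptor PPARα, while F is left unexplained in the labels. No Sham group with F was analysed here. Tissue was collected 24 h after ligation. Neither the age of the rats nor the number of animals behind a library is stated in the labels, so p-values measure the spread between libraries, which may be technical.

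A ubiquitin ligase brings a target protein to a ubiquitin-carrying enzyme, and chains of ubiquitin mark most such targets for the proteasome. Trim54, Trim55 and Trim63 encode MuRF3, MuRF2 and MuRF1, RING-finger ligases that sit on the sarcomere of heart and skeletal muscle. Fbxo32 encodes atrogin-1, an F-box protein that joins targets to a ligase built on Skp1 and Cul1, and Trim63 and Fbxo32 are the classic genes induced in muscle wasting under FOXO transcription factors. The Asb genes encode proteins with ankyrin repeats and a SOCS box, which hold targets to a ligase built on the elongins, Cul5 and Rnf7, and several of them are found mainly in striated muscle.

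Upstream sequences are shown for the 3 genes, low together after injury, that held a match to TGTTTAC or CATTCC. They come from the RefSeq promoter table of build GRCr8, another build than the rn7 named for the counts. In it 6 of the 10 symbols had an entry, among them Asb2, whose level was not analysed. Bases are given 5′ to 3′ on the strand of the gene, and capitals mark a match to TGTTTAC or CATTCC on either strand. The interval for Trim63 is chr5:151816986-151817208 on the plus strand, cut short at the annotated start of the gene. For Trim54 it is chr6:30978476-30978725 on the minus strand, and for Asb15, the first of 2 annotated starts, chr4:53986967-53987216 on the plus strand.
Trim63: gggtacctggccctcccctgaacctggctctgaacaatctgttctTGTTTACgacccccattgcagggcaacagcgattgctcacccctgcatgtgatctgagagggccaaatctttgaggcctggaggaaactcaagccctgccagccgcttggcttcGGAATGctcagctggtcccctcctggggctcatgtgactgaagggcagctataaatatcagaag
Trim54: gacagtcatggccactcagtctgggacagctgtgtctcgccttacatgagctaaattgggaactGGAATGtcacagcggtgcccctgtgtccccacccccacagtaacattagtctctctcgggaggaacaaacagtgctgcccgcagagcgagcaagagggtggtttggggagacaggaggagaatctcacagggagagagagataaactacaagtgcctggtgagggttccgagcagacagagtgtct
Asb15: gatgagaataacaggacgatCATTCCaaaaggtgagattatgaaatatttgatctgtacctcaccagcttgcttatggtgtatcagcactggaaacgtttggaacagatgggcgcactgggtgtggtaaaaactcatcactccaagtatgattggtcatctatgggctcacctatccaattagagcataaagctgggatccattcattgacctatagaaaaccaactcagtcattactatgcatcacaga
TGTTTAC, the core bound by forkhead factors such as FOXO, was found within 250 bases upstream in Trim63 alone of the 6 genes, and 3.21% of all 33469 promoters in the table held it. CATTCC, the core bound by TEAD factors, was found in Trim54, Trim63 and Asb15, against 12.1% of all promoters. In Asb15 it was in the window of the first annotated start only. A MEF2 site was found in Asb18, against 2.96% of all. Of the 250 bases of each window, 139 in Asb18, 183 in Asb2 and all in Asb10 lay inside an annotated gene. CANNTG, the E-box bound by myogenic factors and many others, was in all 6, against 65.5%. None of the 6 held AAGGTCA, an element of estrogen-related receptors found in 3.99% of promoters, a CArG box, found in 1.5%, or the palindromic glucocorticoid response element, found in 0.012%. Both strands were searched and no 2 of the matches in capitals overlapped. A match in these letters is a description and not a measured site, and the absence of one says only that the letters are not in this window.

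Total counts per library lay between 12208041 and 18393795. Mitochondrially encoded transcripts made up 36.3% ± 2.55 of Sham counts (SD, n = 3), and group means of 14.2% to 17.9% after injury. Scaling factors by TMM, a method that sets the typical gene equal between libraries, were correspondingly 0.535 to 0.677 in Sham and 0.996 to 1.17 elsewhere. Cardiomyocyte markers were followed with an index, the geometric mean of 14 markers in CPM (counts scaled to library size, with TMM-scaled library sizes). It was 1442 ± 381 in Sham, 211 ± 33.5 in MI24h, 103 ± 34.4 in MI24h-F, 314 ± 10.4 in MI1h_R, 353 ± 81.6 in MI1h-23h-F, 149 ± 85.1 in MI6h_R and 161 ± 97.4 in MI6h-18h-F (SD, n = 3 each). In these bulk samples fewer cardiomyocytes and less RNA per cardiomyocyte cannot be told apart. The 6 skeletal muscle markers with a row summed to 1.32 to 9.37 TPM in any library, against 2597 to 43671 TPM for the cardiomyocyte markers.

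Levels between genes were compared in TPM, transcript abundances corrected for gene length. In Sham, Trim54 was the most abundant at 95.8 ± 13.9 TPM (SD, n = 3, as in the rest of this paragraph), and its lowest library stood above the highest of each of the other genes. Trim63, at 44.8 ± 3.03 TPM, came next, clear of Asb11, at 38.2 ± 2.46 TPM. Trim55, at 34.9 ± 9.67 TPM, overlapped both of these, and Trim50 followed at 22.7 ± 10.8 TPM. Asb10, at 16.1 ± 6.82 TPM, overlapped Trim50 and Fbxo32, which had 11.1 ± 9.36 TPM. Asb18 and Asb15 were lowest, at 7.53 ± 2.16 and 6.99 ± 4.83 TPM, and their ranges overlapped.

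In all 6 injured groups the order by mean TPM began with the 3 MuRF genes, Trim54, Trim55 and Trim63. Fbxo32 and Asb11 held the next places in either order. Asb11 had 2.25 ± 0.503 TPM in MI24h and 5.85 ± 1.48 in MI1h-23h-F, and Trim50 had 0.61 ± 0.165 and 1.46 ± 0.912 TPM (SD, n = 3). Asb10 was last in every injured group except MI1h-23h-F, where it had 1.54 ± 0.682 TPM and Asb18 was last at 0.723 ± 0.604 TPM, with overlapping ranges.

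**Figure D1:**
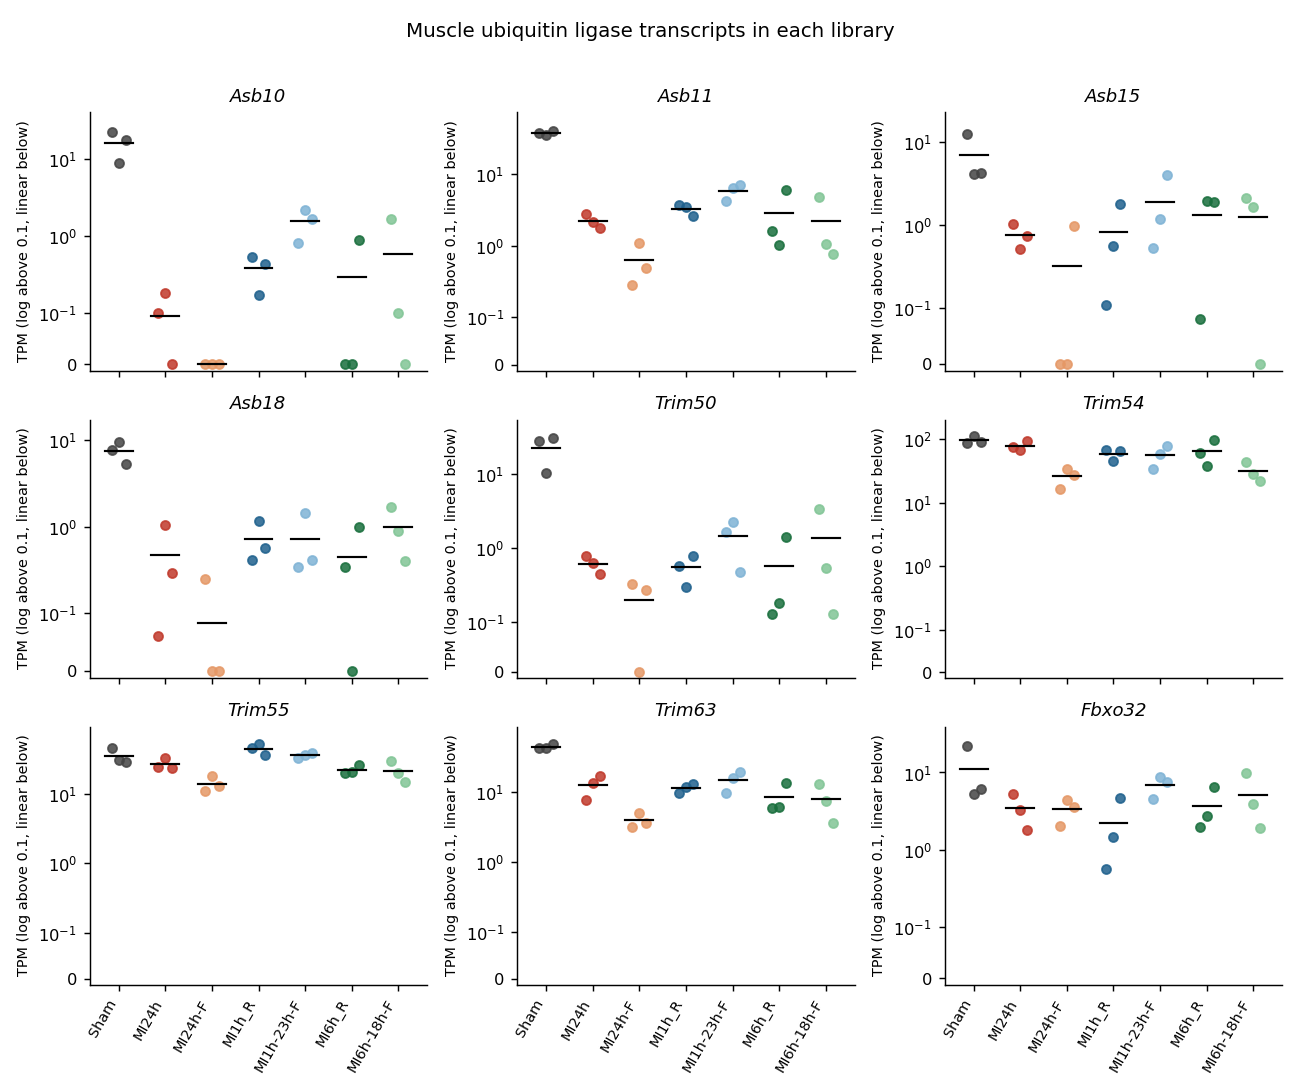
TPM of each of the 9 genes (1 panel each, y axis logarithmic above 0.1 TPM and linear below) in the 7 groups on the x axis; points are libraries and bars are group means. Asb10, Asb11, Asb15, Asb18, Trim50 and Trim63 have all 18 injured libraries below all Sham libraries, whereas the ranges of Trim54, Trim55 and Fbxo32 meet those of Sham.

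Against Sham, all 9 genes were lower in all 6 injured groups on the TMM scale. The median log2 fold change of the 9 was -4.09 in MI24h, -5.27 in MI24h-F, -3.91 in MI1h_R, -2.86 in MI1h-23h-F, -3.61 in MI6h_R and -3.59 in MI6h-18h-F, while the median of all genes tested lay between 0.03 and 0.07. In CPM all 9 genes were without overlap with Sham in MI24h, where 26.2% of all genes were called lower, in MI24h-F (30.1%), in MI1h-23h-F (24.2%), in MI6h_R (28.0%) and in MI6h-18h-F (28.5%), and 8 of 9 in MI1h_R (24.1%). A gene was called at an edgeR adjusted p under 0.05. Counts at an unadjusted p under 0.05, given further on, have no share of all genes beside them. Of all genes tested, 26.1% lay below Sham without overlap in MI24h, 30.3% in MI24h-F, 24.5% in MI1h_R, 26.8% in MI1h-23h-F, 28.4% in MI6h_R and 28.6% in MI6h-18h-F. The counts of the 9 genes follow from how they were chosen. When libraries were scaled by their size only, the typical gene itself rose by 0.80 to 0.91 against Sham, so folds here are relative to the typical gene. On that scale 54 of 54 values of the 9 genes lay below the median of all genes.

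Among the SOCS-box genes, Asb10 had 55.2, 24.7 and 64.9 CPM in Sham. It had 0 counts in all 3 MI24h-F libraries, which puts it at least 227-fold lower there than in Sham (floor of 3 counts per library, counting error only). In MI24h the libraries held 2, 4 and 0 counts, in MI6h_R 0, 0 and 21, and in MI6h-18h-F 35, 2 and 0. MI1h_R, with 11, 4 and 10 counts, and MI1h-23h-F, with 17, 46 and 34, were the 2 injured groups with counts in every library. The log2 fold change against Sham was -8.41 ± 1.32 (SE, as for all fold changes below) in MI24h, where 2 counts remained without replicate 21, -6.33 ± 1.13 in MI1h_R and -4.49 ± 0.99 in MI1h-23h-F. Those of MI6h_R (-6.95 ± 1.16) and MI6h-18h-F (-5.86 ± 1.09) rested on replicates 31 and 1, without which 0 and 2 counts remained.

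Asb11, which shares its counts with Asb9, had 68.6, 74.5 and 110 CPM in Sham, and no injured library passed 7.62 CPM. MI24h-F was lowest at 0.303, 1.14 and 0.514 CPM, with a log2 fold change of -6.96 ± 0.75 against Sham (-7.65 without replicate 2). MI1h-23h-F was highest at 4.16, 6.21 and 7.62 CPM, with -3.82 ± 0.62. The 3 libraries of MI6h_R were unlike each other, with 1.60, 0.903 and 5.84 CPM; the log2 value of that group was -4.92 ± 0.65, and -6.05 without replicate 31.

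Asb18 had 16.0, 22.8 and 16.3 CPM in Sham and between 0 and 1.99 CPM in the injured libraries. Its log2 fold change was -5.00 ± 0.92 in MI24h, and -6.17 without replicate 21. In MI1h_R it was -4.23 ± 0.87, and -4.85 without replicate 31. In MI24h-F only replicate 1 held counts, 4 in number. Asb15, a gene linked to muscle growth, was scarcer and more scattered. Sham gave 13.8, 5.19 and 6.91 CPM, and its injured libraries ran from 0 to 2.59 CPM with a median of 0.602. The log2 values were -4.09 ± 1.14 in MI24h and -2.86 ± 1.05 in MI1h-23h-F, the latter -4.09 without replicate 5.

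Trim50, a RING-finger ligase outside the MuRF group, had 76.6, 32.7 and 124 CPM in Sham and at most 5.31 CPM in any injured library. Its log2 fold change was -6.28 ± 0.99 in MI24h, -7.93 ± 1.12 in MI24h-F (-7.30 without replicate 2), -6.33 ± 0.99 in MI1h_R and -5.12 ± 0.91 in MI1h-23h-F. In the 6 h groups it was -6.52 ± 0.99 without F and -5.19 ± 0.92 with F, but -8.43 and -7.23 once MI6h_R replicate 31 or MI6h-18h-F replicate 1 was left out.

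Of the MuRF genes, Trim63 had 110, 125 and 184 CPM in Sham and 4.77 to 29.8 CPM in the injured libraries, with a log2 fold change of -2.81 ± 0.45 in MI24h and -4.55 ± 0.49 in MI24h-F. Trim54 had 142, 210 and 220 CPM in Sham, and its log2 values ran from -1.31 ± 0.38 in MI24h to -2.93 ± 0.40 in MI24h-F. Trim55 had 182, 137 and 165 CPM in Sham. Its log2 values ran from -0.52 ± 0.25 in MI1h_R, whose 114, 141 and 82.9 CPM overlapped Sham, to -2.34 ± 0.26 in MI24h-F. The sign for Trim55 depended on the scaling in both 1 h groups, since MI1h_R gave 0.23 with library size alone and 0.34 on log2(TPM + 1), and MI1h-23h-F gave 0.06 on the latter; with library size alone MI1h_R was still 0.59 below the median of all genes.

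Fbxo32 varied most within Sham, at 28.3, 7.74 and 11.7 CPM. Its injured libraries ran from 0.466 CPM, in MI1h_R replicate 11, to 7.10 CPM, in MI6h-18h-F replicate 1. The log2 fold change was -2.61 ± 0.69 in MI24h, -2.64 ± 0.69 in MI24h-F, -3.14 ± 0.71 in MI1h_R and -1.67 ± 0.66 in MI1h-23h-F. Sham replicate 11 set much of this, since without it the same values were -1.90, -1.90, -2.42 and -0.95. Without MI1h_R replicate 41 the value of that group was -4.14.

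**Figure D2:**
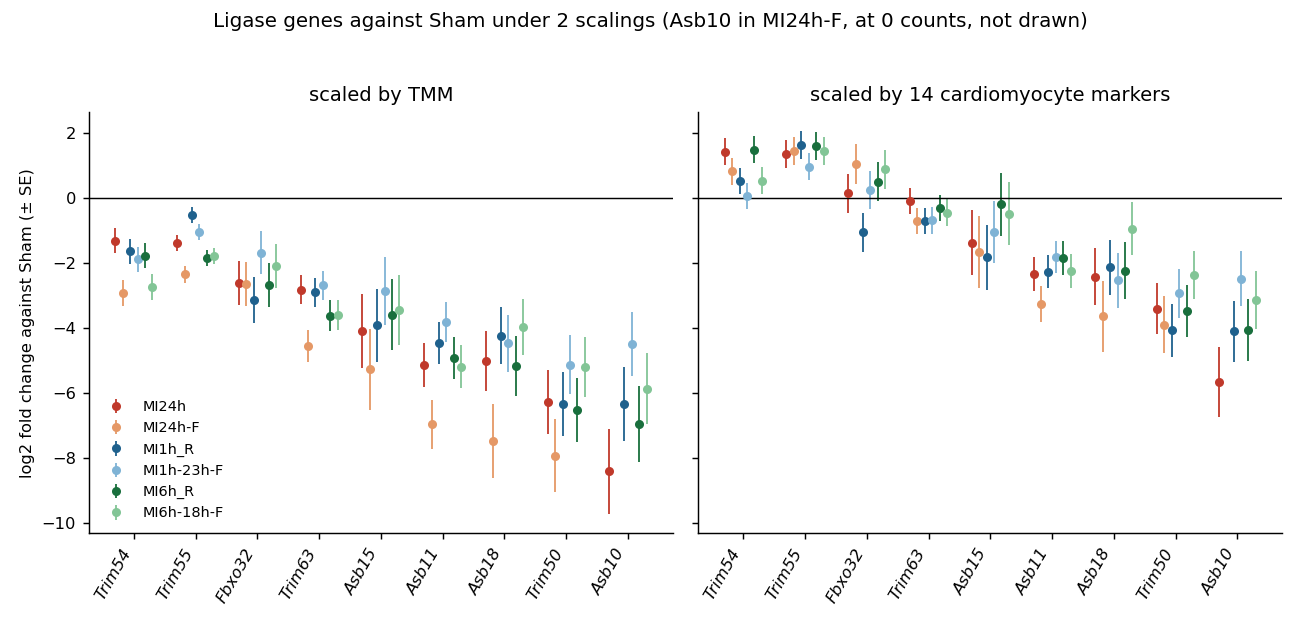
Log2 fold change against Sham with its standard error (y axis) of each gene (x axis) in the 6 injured groups, scaled by TMM on the left and by 14 cardiomyocyte markers on the right. On the left all values are below 0; on the right Trim55 lies above 0 in all 6 groups, Trim63 between -0.70 and -0.08, and Asb11, Asb18, Trim50 and Asb10 below 0.

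To set each gene against other cardiomyocyte transcripts of its own library, libraries were also scaled by the 14 markers instead of TMM. Asb10, Trim50, Asb11 and Asb18 were low even relative to the markers, with log2 fold changes against Sham in MI24h of -5.65 ± 1.08, -3.40 ± 0.79, -2.32 ± 0.52 and -2.41 ± 0.87. For each of these 4 genes all 18 injured libraries lay below all 3 Sham libraries. The genes were chosen by their low levels against Sham. How many of all genes lie below or above Sham on this scale was not counted, here or for the genes that follow. Asb11, for one, had 54.2, 63.1 and 58.6 counts per 1000 of the marker index in Sham and 4.34 to 23.9 in the injured libraries, and Trim50 had 60.6, 27.7 and 66.0 against 0 to 19.6.

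Trim63 was slightly below its Sham level relative to the markers. It had 87.1, 106 and 97.8 counts per 1000 marker counts in Sham and 46.5 to 126 in injured hearts, where 16 of 18 libraries lay below all Sham libraries and 1 above, with log2 values of -0.08 ± 0.41 in MI24h, -0.70 ± 0.41 in MI24h-F and -0.70 ± 0.41 in MI1h_R. Fbxo32 differed in both directions, with 0.16 ± 0.60, 1.05 ± 0.61 and -1.05 ± 0.61 in those groups. Asb15 had values below 0 in all 6 groups, at -1.37 ± 1.00 in MI24h and -0.19 ± 0.97 in MI6h_R.

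Relative to the markers Trim55 was above Sham in every injured library, and Trim54 in some groups. Trim55 had 144, 116 and 88.0 counts per 1000 marker counts in Sham, and all 18 injured libraries were above these, at 209 to 478. Its log2 values ran from 0.97 ± 0.42 in MI1h-23h-F to 1.63 ± 0.43 in MI1h_R. Trim54 had 112, 178 and 117 in Sham and was above them in 13 of 18 injured libraries, with 410, 257 and 431 in MI24h and 441, 368 and 344 in MI6h_R. In MI1h-23h-F its 114, 138 and 174 all lay within the Sham range, at a log2 value of 0.07 ± 0.41. Relative to the markers the typical gene of the whole table was itself higher than in Sham, by 2.05 to 3.92 on the log2 scale over the 6 groups, above the values of Trim54 and Trim55 in every group.

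**Figure D3:**
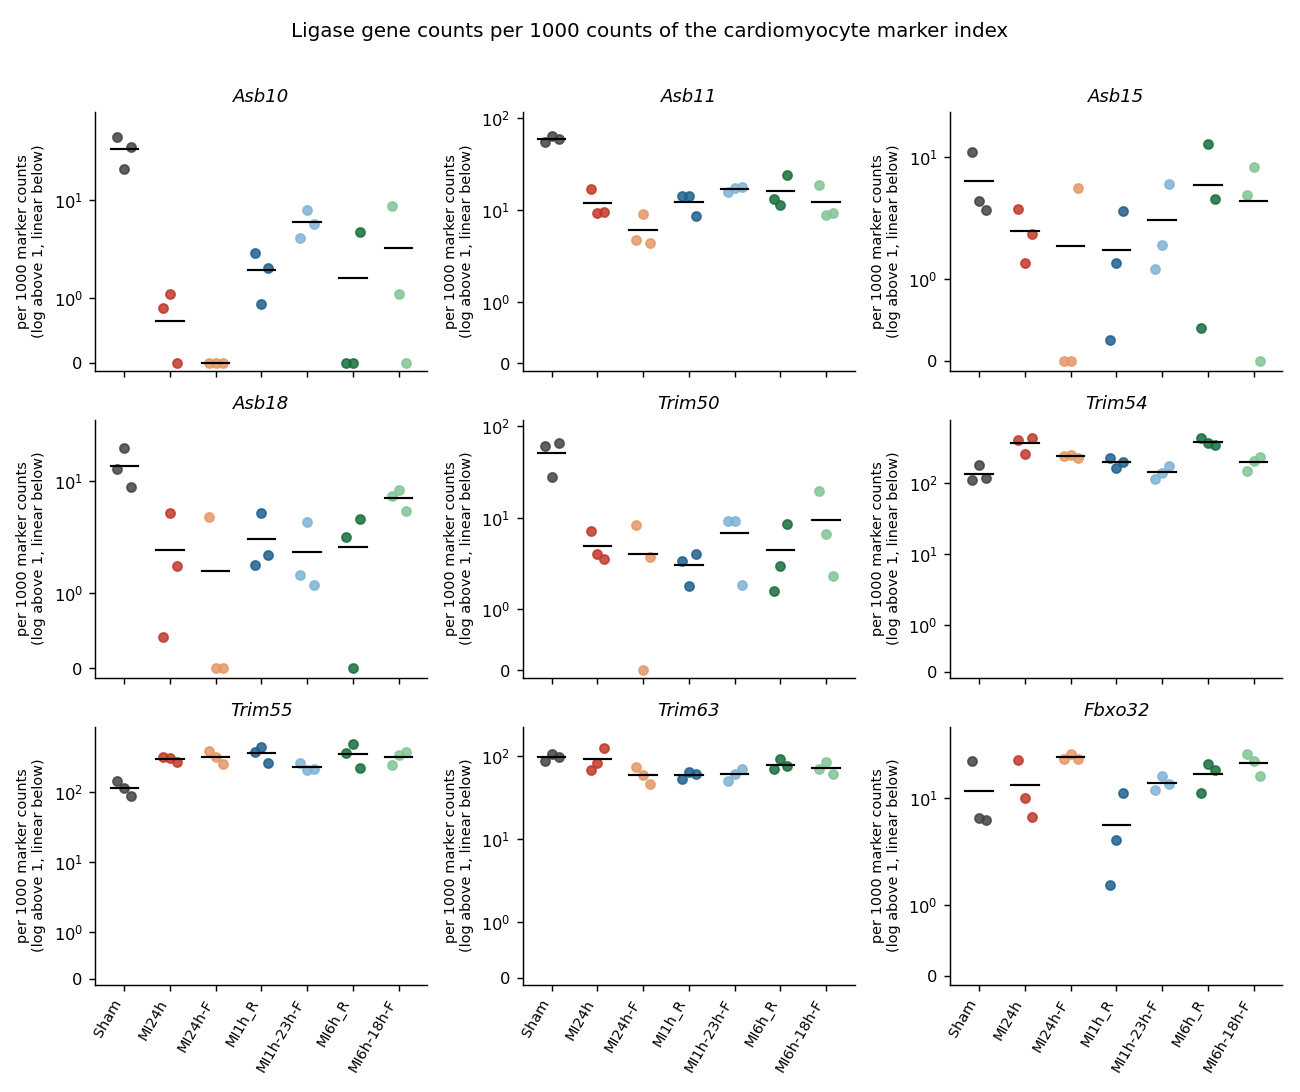
Counts of each gene per 1000 counts of the cardiomyocyte marker index (y axis, logarithmic above 1 and linear below) in the 7 groups on the x axis; points are libraries and bars are group means. Trim55 lies above Sham in all 18 injured libraries, while Asb10, Asb11, Asb18 and Trim50 lie below Sham in all 18.

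Within the 18 injured libraries the genes also differed in how closely they followed the marker index. On log2(CPM + 1) the Pearson correlation with the log2 index was 0.92 for Asb11, 0.92 for Trim63, 0.90 for Trim55, 0.76 for Asb10 and 0.73 for Trim54. It was lower for Trim50 (0.61), Asb18 (0.57), Asb15 (0.47) and Fbxo32 (0.40). Mean levels in the injured libraries were 1.24 CPM for Trim50, 0.683 for Asb18, 0.665 for Asb15 and 3.03 for Fbxo32. Asb10 (0.678) and Asb11 (3) were also scarce, with higher correlations. The part of counting error in the correlations was not tested. All are descriptions over 18 libraries that share 6 groups and a scaling. Among the genes themselves, Asb11 and Trim63 had 0.85, Asb10 and Asb11 0.85 and Trim55 and Trim63 0.84, while Fbxo32 had 0.15 with Trim54 and 0.07 with Trim55.

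Single libraries stood out in the 6 h groups. All 9 genes were highest in replicate 31 of MI6h_R, and all 9 in replicate 1 of MI6h-18h-F, and the marker index was highest in the same 2 libraries. Trim63 had 8.44, 7.46 and 18.4 CPM in MI6h_R replicates 11, 21 and 31, and 18.9, 10.7 and 5.19 CPM in MI6h-18h-F replicates 1, 2 and 4. The part of the marker index in these values was not tested.

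Outside the 9 genes, those of highest correlation with the MuRF genes among 7988 genes with a mean of at least 10 CPM in the injured libraries were mostly muscle transcripts. Trim54 went with Dusp27 (0.96), a muscle phosphatase relative, and with Hspb7 (0.95) and Hspb2 (0.94), small heat shock proteins of heart. Trim55 went with Itgb1bp2 (0.95), which encodes melusin, with Ndufa12 of complex I (0.95) and with the small muscle protein gene Smpx (0.94). Trim63 went with Cox6a2, the muscle form of a cytochrome oxidase subunit (0.96), with Smpx (0.96) and with Art3 (0.95).

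**Figure D4:**
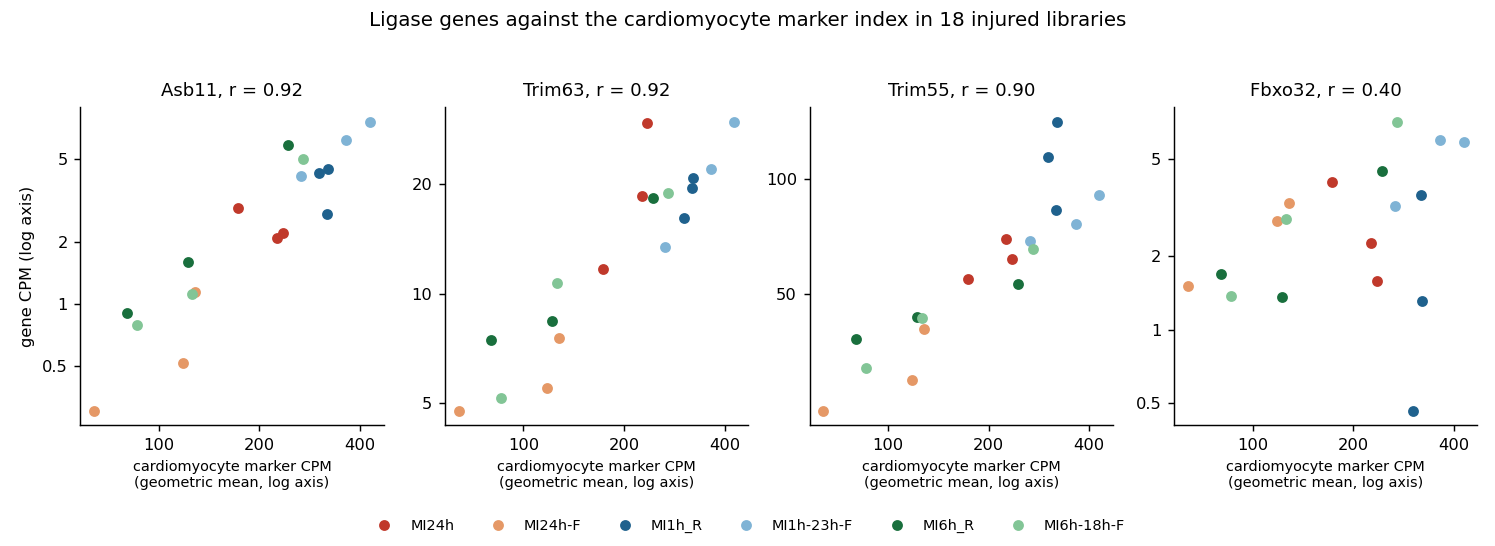
CPM of Asb11, Trim63, Trim55 and Fbxo32 (y axes, logarithmic) against the geometric mean CPM of 14 cardiomyocyte markers (x axes, logarithmic) in the 18 injured libraries, coloured by group. Asb11, Trim63 and Trim55 follow the index with r of 0.92, 0.92 and 0.90 on log2 values, and Fbxo32 less closely with 0.40.

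Reperfusion was compared with permanent ligation at the same 24 h, which asks what restoring flow early or late does to these transcripts. With F, 4 of the 9 genes were called higher in MI1h-23h-F than in MI24h-F, against 8.87% of all genes. Trim55 had 68.7, 76.3 and 90.7 CPM after 1 h of ischemia against 24.8, 40.5 and 29.9 CPM under permanent ligation, a rise of 1.31 ± 0.25 on the log2 scale (edgeR adjusted p = 0.00418). Asb11 had 4.16, 6.21 and 7.62 CPM against 0.303, 1.14 and 0.514, a rise of 3.15 ± 0.70 (edgeR adjusted p = 0.00833). The groups did not overlap for either gene, nor for Asb10, Asb18, Trim50 and Trim63, which makes 6 of 9 genes beside 24.1% of all genes above MI24h-F without overlap. For Asb18 the closest libraries of the 2 groups held 6 and 4 counts, and for Trim50 11 and 7. The calls of Trim55 and Asb11 held with each of the 6 libraries left out, Asb11 rising by 3.84 without MI24h-F replicate 2.

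Trim63 rose by 1.87 ± 0.45 in the same comparison, from 4.77, 7.56 and 5.5 CPM to 13.5, 22.1 and 29.8 CPM (edgeR adjusted p = 0.0117). The call was lost without MI1h-23h-F replicate 5 (1.56) or MI24h-F replicate 1 (1.73). Asb10, at 0 counts in MI24h-F, was at least 10.1-fold higher in MI1h-23h-F (floor of 3 counts per library; edgeR adjusted p = 0.0226). Of the 6 libraries, only leaving out MI1h-23h-F replicate 1 kept that call, and without any other the edgeR adjusted p was 0.0563 to 0.0729. Asb18 (3.01 ± 1.22), Trim50 (2.81 ± 1.11), Asb15 (2.42 ± 1.27), Trim54 (1.04 ± 0.38) and Fbxo32 (0.97 ± 0.68) did not pass the edgeR test. Trim54 was called without MI1h-23h-F replicate 1 (1.32), by DESeq2 (1.03), with only the groups compared (1.03) and on both TPM scales (1.07 and 1.09). Asb18 was called by DESeq2 (3.06), and Trim50 with only the groups compared (2.78). The marker index was 353 ± 81.6 CPM in MI1h-23h-F and 103 ± 34.4 CPM in MI24h-F (SD, n = 3).

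Without F, none of the 9 genes was called between MI1h_R and MI24h in edgeR, where 4.32% of all genes were called; Trim55 alone had an unadjusted p under 0.05, and DESeq2 called 1 gene, Trim55. Its values were 114, 141 and 82.9 CPM in MI1h_R and 54.9, 69.5 and 61.9 CPM in MI24h, without overlap, with a log2 difference of 0.86 ± 0.25 (edgeR adjusted p = 0.055) that was called without MI1h_R replicate 41 (1.04). Asb10 was the other gene without overlap, at 2.08 ± 1.53, and 21.9% of all genes were without overlap there. Its closest libraries in the 2 groups both held 4 counts, so they were apart only through the scaling of the libraries. Trim63 was at -0.08 ± 0.43 and Trim54 at -0.32 ± 0.37, with overlapping groups. On the mean of the comparisons without and with F, 4 of 9 genes were called higher after 1 h than under permanent ligation, against 9.84% of all genes. Trim55 rose by 1.08 ± 0.18 (edgeR adjusted p = 0.000504) and Asb11 by 1.91 ± 0.47 (edgeR adjusted p = 0.00942), both also with any of the 12 libraries left out. Trim63 rose by 0.90 ± 0.31 at the threshold (edgeR adjusted p = 0.0499), and its call was lost in 10 of 12 such fits (0.74 to 1.00), the exceptions being those without MI1h-23h-F replicate 1 or MI24h replicate 41. It was also lost with median-of-ratios factors (0.88) and with no filter on low counts (0.88). Asb10 was called as well (edgeR adjusted p = 0.021), except without MI1h_R replicate 11 (edgeR adjusted p = 0.0506). Asb18, at 1.89 ± 0.77, was not called by edgeR, but was without MI24h replicate 21 (2.48) and by DESeq2 (1.93).

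After 6 h of ischemia no gene was called against permanent ligation in edgeR. Between MI6h_R and MI24h, where 0.502% of all genes were called, no gene had an unadjusted p under 0.05, and the log2 values ran from -0.80 ± 0.43 for Trim63 to 1.46 ± 1.57 for Asb10. Trim55 was the gene without overlap there, at -0.46 ± 0.25, beside 13.0% of all genes without overlap. Between MI6h-18h-F and MI24h-F 0.485% of all genes were called. Of the 9 genes 6 had an unadjusted p under 0.05, and all 9 values were above 0. The median of all genes was 0.01 there, and their share at an unadjusted p under 0.05 was not counted. Asb18 was the only gene without overlap there, with 1.99, 1.04 and 0.46 CPM against 0.303, 0 and 0 CPM. Its closest libraries held 7 and 4 counts. Of all genes, 17.8% were without overlap between these 2 groups. On the mean of both comparisons 2 genes had an unadjusted p under 0.05. None was called, against 2.69% of all genes called. DESeq2 and limma on TPM also called 0 genes in these 3 comparisons.

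Early and late reperfusion were compared directly as well, and Trim55 was the only one of the 9 genes called with all libraries. Without F it had 114, 141 and 82.9 CPM in MI1h_R and 43.6, 38.3 and 53.3 CPM in MI6h_R, a rise of 1.32 ± 0.25 (edgeR adjusted p = 0.0146), the single call of 9 genes, against 1.26% of all genes called higher. The call was lost without MI1h_R replicate 31 (1.13), MI6h_R replicate 11 (1.29) or MI6h_R replicate 21 (1.22). With F it had 68.7, 76.3 and 90.7 CPM in MI1h-23h-F and 65.7, 43.4 and 32.0 CPM in MI6h-18h-F, without overlap, at 0.74 ± 0.25. Of all genes, 22.8% were without overlap between these groups with F. In that comparison 0 of 9 genes and 0.00% of all genes were called. An unadjusted p under 0.05 was reached by 4 of the 9, a share not counted over all genes. Without MI6h-18h-F replicate 1, Trim55 (1.06) and Asb11 (2.65) were called. DESeq2 and limma on TPM called 0 of the 9 genes there. On the mean of both, Trim55 rose by 1.03 ± 0.18 (edgeR adjusted p = 0.0114), the single call, against 1.54% of all genes, and it held without each of the 12 libraries. Trim63 (0.82 ± 0.31) and Asb11 (0.91 ± 0.43) were not called, but both were called without MI6h_R replicate 31 (1.08 and 1.48) and without MI6h-18h-F replicate 1 (1.09 and 1.55). The marker index was 314 ± 10.4 CPM in MI1h_R and 149 ± 85.1 CPM in MI6h_R (SD, n = 3).

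Relative to the cardiomyocyte markers most of these calls were absent, and others appeared. Trim55 was not called in MI1h_R against MI6h_R (0.03 ± 0.42) or on the mean of 1 h against 6 h (-0.23 ± 0.30). In MI1h-23h-F against MI24h-F, Trim55 had -0.49 ± 0.42 and Trim63 0.02 ± 0.41, neither called. Asb11 kept a rise of 1.45 ± 0.55 (edgeR adjusted p = 0.0162), with 15.6, 17.0 and 17.8 counts per 1000 marker counts against 4.73, 8.92 and 4.34, and lost it without MI24h-F replicate 1 (1.33) or 4 (1.24). Asb10 was called too (edgeR adjusted p = 0.00194), at 4.09, 7.92 and 5.71 per 1000 against 0 in all 3 libraries, also without each of the 6 libraries. On this scale 0.324% of all genes were called higher and 81.6% lower.

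Trim54 and Fbxo32 were called lower after 1 h of ischemia on this scale, where the typical gene fell as well. Against permanent ligation on the mean, the median of all genes was -1.20, a larger fall than either gene had. On the mean against permanent ligation, Trim54 fell by 0.83 ± 0.29 (edgeR adjusted p = 0.0114, also without each of the 12 libraries) and Fbxo32 by 1.01 ± 0.44 (edgeR adjusted p = 0.0362), against 78.4% of all genes called lower. The call of Fbxo32 remained only without MI1h-23h-F replicate 4, MI1h_R replicate 41, MI24h replicate 21 or 41, or MI24h-F replicate 4, and without any of the other 7 libraries it was lost, at -1.02 to -0.68. Asb10 was called higher (edgeR adjusted p = 0.00195), against 0.383% of all genes.

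Against 6 h, Trim54 fell by 0.72 ± 0.29 on this scale (edgeR adjusted p = 0.0228) and Fbxo32 by 1.1 ± 0.44 (edgeR adjusted p = 0.0206), against 86.1% of all genes. These were lost for Trim54 without MI1h-23h-F replicate 1 (-0.65), MI1h_R replicate 31 (-0.66) or MI6h_R replicate 11 (-0.67), and for Fbxo32 without MI1h_R replicate 11 (-0.88). Between MI1h_R and MI6h_R both were called lower too, at -0.97 ± 0.41 and -1.56 ± 0.63 (edgeR adjusted p = 0.0422 and 0.0335), against 61.6% of all genes. There the call of Trim54 held only without MI6h_R replicate 31, and that of Fbxo32 was lost without MI1h_R replicate 11 (-1.13) or 31 (-1.38) or MI6h_R replicate 21 (-1.39) and went to -2.55 without MI1h_R replicate 41. All these shares of genes called lower are larger than the share of the 9 genes. The median of all genes was -1.35 on the mean against 6 h, a larger fall than either gene had. Between MI1h_R and MI6h_R it was -1.34, between the values of Trim54 and Fbxo32.

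The comparison of hearts with and without F asks what the added treatment did within one injury. Under permanent ligation the 8 genes other than Asb10, which had few or no counts in both groups, had values below 0 in MI24h-F against MI24h, and the 3 MuRF genes were called lower, against 7.78% of all genes. Trim54 fell by 1.61 ± 0.38, from 71.1, 58.2 and 101 CPM to 15.7, 32.5 and 27.0 CPM (edgeR adjusted p = 0.0128). Trim55 fell by 0.97 ± 0.25, from 54.9, 69.5 and 61.9 CPM to 24.8, 40.5 and 29.9 CPM (edgeR adjusted p = 0.0179). Trim63 fell by 1.74 ± 0.45, from 11.7, 18.6 and 29.5 CPM to 4.77, 7.56 and 5.5 CPM (edgeR adjusted p = 0.018). For all 3 genes the groups did not overlap, as was also the case for Asb11 (-1.82 ± 0.72) and Trim50 (-1.65 ± 1.19), which edgeR did not call. These 5 of 9 genes stand beside 21% of all genes below MI24h without overlap. For Trim50 the closest libraries held 12 counts in MI24h and 7 in MI24h-F. DESeq2 called Asb11 (-1.83). Fbxo32 had -0.03 ± 0.69.

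Each of these calls was lost on leaving out any 1 of several libraries, at an edgeR adjusted p of 0.0507 to 0.104. The log2 values stayed below 0. Without MI24h-F replicate 1 none of the 3 was called (-1.37 for Trim54, -0.82 for Trim55 and -1.60 for Trim63). Trim54 was also lost without MI24h replicate 41 (-1.36), Trim55 without MI24h replicate 21 (-0.88) or MI24h-F replicate 4 (-0.93), and Trim63 without MI24h replicate 41 (-1.34) or MI24h-F replicate 4 (-1.68). The marker index was 211 ± 33.5 CPM in MI24h and 103 ± 34.4 CPM in MI24h-F (SD, n = 3), and relative to the markers 0 of the 9 genes were called by edgeR, none with an unadjusted p under 0.05, against 30.4% of all genes. Trim54 had -0.60 ± 0.41 on that scale, Trim55 0.11 ± 0.42 and Trim63 -0.62 ± 0.42.

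With reperfusion no gene was called between hearts with and without F in edgeR. In MI1h-23h-F against MI1h_R, where 0.0766% of all genes were called, 2 genes had an unadjusted p under 0.05, Fbxo32 at 1.46 ± 0.69 and Trim55 at -0.52 ± 0.25. Asb10 was the gene without overlap, with 1.09, 2.89 and 2.45 CPM with F and 0.855, 0.29 and 0.635 CPM without. Its closest libraries held 17 and 11 counts. The share of all genes without overlap was 24.8%. In MI6h-18h-F against MI6h_R, where 9.62% of all genes were called, Trim54 alone had an unadjusted p under 0.05, at -0.95 ± 0.38, with 40.0, 26.3 and 20.3 CPM with F and 53.9, 29.6 and 84.0 CPM without. DESeq2 and limma on TPM called 0 of the 9 genes in both comparisons.

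On the mean of the 3 injuries Trim54 fell with F by 0.94 ± 0.22 (edgeR adjusted p = 0.00408) and Trim55 by 0.47 ± 0.14 (edgeR adjusted p = 0.019). These 2 of 9 genes stand against 15.7% of all genes called lower, and both calls held without each of the 18 libraries. Trim63 had -0.50 ± 0.25 and Fbxo32 0.67 ± 0.40, not called, Trim63 being called without MI6h-18h-F replicate 1 (-0.69). Relative to the markers none of the 9 was called in this mean, with Trim54 at -0.67 ± 0.24 and Fbxo32 at 0.86 ± 0.36, the 2 genes with an unadjusted edgeR p under 0.05, against 3.66% of all genes called. The effect of F was also compared between injuries with interaction terms. None of the 9 genes was called in any of the 3 (0.00%, 0.00% and 0.00852% of all genes called), by edgeR, DESeq2 or limma on TPM. The count with an unadjusted p under 0.05 was 3 for 1 h minus permanent ligation, 3 for 6 h minus permanent ligation and 0 for 1 h minus 6 h. The share of all genes at that threshold was not counted. A difference between injuries in the effect of F on these genes was thus not shown.

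**Figure D5:**
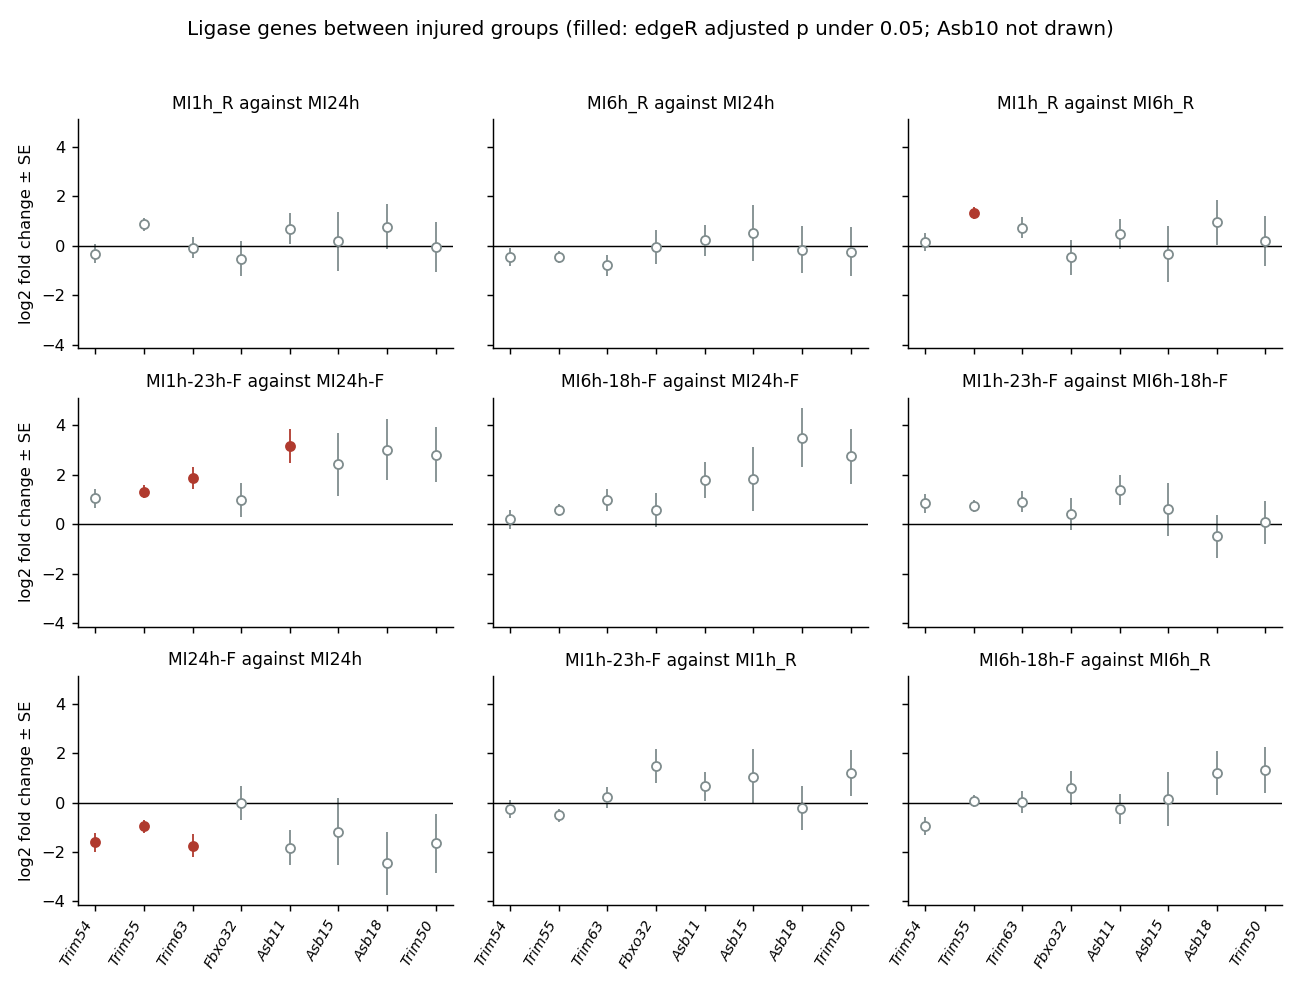
Log2 fold change with its standard error (y axis) of 8 genes (x axis) in 9 comparisons between injured groups; filled red points passed an edgeR adjusted p under 0.05, and Asb10 is left out because it had 0 counts in MI24h-F. Trim55 is called in 3 of the 9 panels, Trim63 in 2, Asb11 in 1 and Trim54 in 1.

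The rest of the ubiquitin pathway was followed with gene lists. In MI24h against Sham, 28.0% of all genes were called higher and 26.2% lower. The counts of each list below in that comparison stand beside these shares. Of 9 other ASB genes 5 fell and 2 rose, with a median log2 fold change of -0.84. Asb14 fell by 5.64 ± 0.85 (edgeR adjusted p = 2.48e-05), Asb12 fell by 2.82 ± 0.56 and Asb8 by 1.56 ± 0.24, while Asb6 rose by 0.61 ± 0.15. Asb14 and Asb12 also rose after 1 h against permanent ligation on the mean, by 2.12 ± 0.59 and 1.34 ± 0.40 (edgeR adjusted p = 0.0188 and 0.0253). They were the 2 of 9 called, against 9.84% of all genes called higher.

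Of 27 other ubiquitin ligase genes described in striated muscle, 13 fell and 5 rose in MI24h (median -0.68). Rnf207, a cardiac ligase tied to the QT interval, fell by 4.69 ± 0.57 (edgeR adjusted p = 2.87e-06), the mitochondrial ligase gene Mul1 by 1.39 ± 0.20, Fbxo21 by 1.25 ± 0.18 and Wwp1 by 1.1 ± 0.15. On the mean of 1 h against permanent ligation 3 of the 27 rose and 3 fell, against 9.84% of all genes called higher and 8.75% lower, with Rnf207 up by 2.11 ± 0.41 (edgeR adjusted p = 0.00213) and Cblb, Mdm2 and Smurf1 at -0.94 ± 0.21, -0.59 ± 0.13 and -0.56 ± 0.14.

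The partners of these adaptors were followed next. Of 17 cullin-RING scaffold and adaptor genes 8 fell and 1 rose in MI24h against Sham (median -0.52). Cul4a fell by 1.05 ± 0.15, Skp1, the partner of Fbxo32, by 1.12 ± 0.21 and Ube2m by 0.83 ± 0.18, and Cand1 rose by 0.67 ± 0.14. Under F 9 of the 17 rose and 2 fell on the mean of the 3 injuries, where 11.3% of all genes were called higher and 15.7% lower. Cul1 rose by 0.45 ± 0.07 and Cul5, the scaffold of the ASB ligases, by 0.57 ± 0.12 (edgeR adjusted p = 0.000173 and 0.00199), while Rnf7, the RING subunit that works with Cul5, fell by 0.71 ± 0.11 (edgeR adjusted p = 0.00028). None of the 17 was called on the mean of 1 h against permanent ligation.

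Of 11 core (20S) genes 3 fell in MI24h against Sham (median -0.43), beside 26.2% of all genes. Psmb7 fell by 0.74 ± 0.18, Psmb5 by 0.65 ± 0.20 and Psmb6 by 0.53 ± 0.19. Of 16 regulatory (19S) genes 2 fell and 1 rose (median -0.08), Psmd11 rising by 0.52 ± 0.12. Of 17 ubiquitin, E1 and E2 genes 5 fell and 1 rose (median -0.10), with Ube2d1 at -2.29 ± 0.26 and Ube2b, known to act with muscle ligases in wasting, at -2.05 ± 0.24. In none of these 3 lists was a gene called on the mean of 1 h against permanent ligation. With F, 5 of the 16 regulatory genes fell and 1 rose on the mean of the 3 injuries, Psmd4 falling by 0.48 ± 0.10 and Psmd3 by 0.35 ± 0.07. Of all genes, 15.7% were called lower and 11.3% higher there.

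Of 5 genes of the immunoproteasome, the form induced by interferon, and its activator, 3 rose in MI1h_R against MI6h_R (median 0.80, and 0.01 over all genes). There 1.26% of all genes were called higher. Psme1 rose by 0.92 ± 0.18, Psmb9 by 1.24 ± 0.27 and Psme2 by 0.80 ± 0.20 (edgeR adjusted p = 0.0178, 0.0277 and 0.0429). With F, 3 of the 5 fell on the mean of the 3 injuries (median -0.48), beside 15.7% of all genes. Psme1 fell by 0.48 ± 0.10, Psmb9 by 0.70 ± 0.16 and Psmb8 by 0.69 ± 0.16. In MI24h against Sham 1 rose and 1 fell, Psmb8 by 0.68 ± 0.27 and Psme1 by 1.48 ± 0.18.

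Among 24 upstream regulators of the wasting ligases, 8 rose and 6 fell in MI24h against Sham, beside 28.0% and 26.2% of all genes. Klf15, a glucocorticoid-induced factor that acts on Trim63 and Fbxo32 in skeletal muscle, fell by 4.77 ± 0.78 (edgeR adjusted p = 6.25e-05), and Foxo4 fell by 1.69 ± 0.20. Tnfrsf12a, the receptor of TWEAK, rose by 3.21 ± 0.39 (edgeR adjusted p = 3.05e-06), and with F it fell by 1.61 ± 0.21 on the mean of the 3 injuries (edgeR adjusted p = 6.68e-05). Klf15 rose by 1.76 ± 0.53 after 1 h against permanent ligation on the mean (edgeR adjusted p = 0.0276). Of 13 other FOXO target genes 6 fell and 2 rose, with Sesn1 at -3.28 ± 0.29 and Map1lc3b at -1.42 ± 0.16.

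Of 15 reported substrates of these ligases, 8 fell and 3 rose in MI24h against Sham. Flnc, a filamin of the muscle Z-disc, rose by 2.52 ± 0.30 (edgeR adjusted p = 2.65e-06), with Tnni3 at -3.54 ± 0.49, Myh6 at -4.03 ± 0.61 and Ckm at -3.25 ± 0.51. Tnni3 and Myh6 are also on the list of 14 cardiomyocyte markers, of which 13 fell. On the mean of the 3 injuries Flnc fell with F by 1.15 ± 0.17 (edgeR adjusted p = 0.000147) and Des by 0.70 ± 0.17 (edgeR adjusted p = 0.00529).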

How the data were processed

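The authors deposited 2 tables of 17085 gene symbols by 21 libraries, expected counts, whole numbers in the file, and TPM. Alignment with STAR 2.7.3a, quantification with RSEM 1.3.1 and the genome build rn7 are named in the submitters' processing notes; annotation and strandedness are not given in the sources used here. In 1131 symbols the counts equal those of another symbol in every library.

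Tests used edgeR 4.0.16 in R 4.3.3 (filterByExpr, TMM, quasi-likelihood, 1 term per group over 21 libraries) with 16 tested comparisons and 6 against Sham, the ligase genes being described without test in the latter. Benjamini-Hochberg adjustment ran over all 11742 genes, and standard errors are the log2 fold change over the root of F. A second fit scaled libraries by the geometric mean of count + 0.5 over 14 cardiomyocyte markers. Floors cover counting error only.

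The ligase genes and all lists were chosen with earlier results of these data known. All of the ligase genes are named; from each other list up to 4 called genes of smallest p, or a part of them, with Klf15, Cblb, Mdm2, Smurf1, Cul5, Rnf7, Des and the immunoproteasome genes also named after their values were seen. The counts of listed genes are over those tested. Alternatives were DESeq2 1.42.0, limma 3.58.1 on log2(TPM + 1) and log2(TPM + 0.1), median-of-ratios factors, no filter on counts, scaling by library size only, removal of mitochondrial genes, only the groups compared, a replicate block and each library left out. On counts simulated for MI1h_R against MI24h with 11627 genes tested, edgeR found 2 of 50 genes changed 1.5-fold. It found 23 of 50 genes changed 2-fold, 49 of 50 changed 4-fold and every one of 50 changed 8-fold, with 8 false calls. The changed genes were drawn from those with a mean of at least 10 CPM over all libraries. Asb10, Asb11, Asb15, Asb18, Trim50 and Fbxo32 had means of 0.665 to 3.03 CPM in the injured libraries, so these rates do not cover them. Python 3.11.15 with matplotlib 3.10.9 made the figures.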

Additional observations from a re-analysis of the deposited data

How the results depend on the processing

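The 3 libraries a group, low counts of Asb10, Asb15, Asb18 and Trim50 after injury and calls near the threshold limit these results. Of 129 values of the ligase genes that were not called, 49 changed sign under some alternative and 11 were called under some, so the absence of a call shows no equality. Against Sham the median log2 fold change of the 9 genes with library size alone was -3.39 in MI24h, -4.54 in MI24h-F, -3.13 in MI1h_R, -2.11 in MI1h-23h-F, -2.74 in MI6h_R and -2.77 in MI6h-18h-F, this scaling also raising the median of all genes by 0.80 to 0.91. On log2(TPM + 1) it was -2.03, -2.95, -2.08, -1.55, -2.35 and -2.11 in the same order, and on log2(TPM + 0.1) -2.88, -4.80, -3.27, -2.04 and -2.77 in the first 5. With 1 library left out it ran from -4.33 to -3.58 in MI24h, -6.81 to -4.72 in MI24h-F and -4.04 to -2.43 in MI1h-23h-F. Trim55 changed sign in MI1h_R against Sham with library size alone (0.23) and on both TPM scales (0.34 and 0.35), and in MI1h-23h-F against Sham on both TPM scales (0.06 and 0.06); beyond the shift of the typical gene the cause was not tested.

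The replicate numbers showed no pairing by likeness. The closest library had the same number for 1 of 12 libraries in groups without F and 0 of 8 in groups with F. Such likeness cannot show whether libraries of the same number were handled together. With the numbers as a replicate block, 0 of the 9 genes were called in 1 h against 6 h on the mean, in MI1h-23h-F against MI24h-F and in MI1h_R against MI6h_R, and 1, Trim55 (1.03), in 1 h against permanent ligation on the mean. The log2 values without a call included 1.28 for Trim55, 3.02 for Asb11 and 1.71 for Trim63 in MI1h-23h-F against MI24h-F, 1.34 for Trim55 in MI1h_R against MI6h_R and 1.03 for Trim55 in 1 h against 6 h. Comparisons of F with no F could not be fitted this way. DESeq2 called 1 gene in MI1h_R against MI24h. With 1 library left out, the number of genes called ran from 1 to 3 in 1 h against 6 h on the mean, 2 to 4 in 1 h against permanent ligation on the mean, 2 to 5 in MI1h-23h-F against MI24h-F, 0 to 2 in MI1h-23h-F against MI6h-18h-F, 0 to 1 in MI1h_R against MI24h, 0 to 1 in MI1h_R against MI6h_R and 0 to 3 in MI24h-F against MI24h. Relative to the markers it ran from 1 to 3 in 1 h against 6 h on the mean, 0 to 1 in MI1h-23h-F against MI6h-18h-F and 0 to 3 in MI1h_R against MI6h_R. Over all alternatives to these counts, 266 of 284 (and 150 of 160 relative to the markers) stayed within 1.5 times the count given. Many of these were counts of 0 that stayed 0, which shows no stability of calls. Calls of single genes were lost in 40 of 274 alternatives, and in 21 of 93 relative to the markers. The median against Sham moved by at least the SD between libraries in 24 of 66. The cause of these changes was not tested.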
